A study of Mus musculus with 10 samples.

Results

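Of the 3069 m6A peaks listed for 3T3-L1 cells at the stage of mitotic clonal expansion (MCE) under rhein, 986 overlapped no peak of any DMSO list. These rhein-only peaks were chosen by the lists themselves: a peak was kept when its span from start to end shared no base, on the same chromosome and strand, with a peak of the DMSO Pre, DMSO MCE or DMSO Diff list. They were then divided by whether the same gene held a DMSO peak at another position. 3T3-L1 is a mouse embryonic fibroblast line, established as a preadipocyte, that forms fat-storing cells after a hormonal induction cocktail. Rhein is an anthraquinone of rhubarb root that inhibits the m6A demethylase FTO, and it was given at 20 µM from day 0 to day 3, with DMSO, the solvent, as control. The study immunoprecipitated fragmented total RNA with an m6A antibody (MeRIP-seq) in DMSO-treated preadipocytes (Pre), in DMSO- and rhein-treated cells at MCE, and in DMSO- and rhein-treated cells at the end of differentiation (Diff), with 1 IP and 1 input library for each of the 5 conditions. Whether cells and RNA of different conditions came from separate cultures is not given in the sources used here, and without replicates no p-value is given. The 95% Wilson intervals below cover counting error over peaks only, and peaks of 1 gene are not independent.

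N6-methyladenosine is laid down on nascent mRNA by the METTL3-METTL14 methyltransferase, mostly at adenosines within the core GGAC and related sequences, and is removed by FTO and ALKBH5. It is known to accumulate in long internal exons, around stop codons and in the first stretch of the 3′ UTR, where YTH-domain proteins read it and affect splicing, translation and decay of the mRNA. An antibody peak marks a stretch of exonic RNA enriched over the input and not a single base, and a peak absent from a list may have been missed for lack of reads. The lists hold no read numbers, so the depth behind each peak is unknown, and a gene expressed too weakly to give a DMSO peak cannot be told apart from an expressed gene without m6A.

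All 986 rhein-only peaks had the identical span in the rhein Diff list, and 3067 of the 3069 rhein MCE peaks did. Hence the second rhein list gave no repeat of the first, and 1 of them was used. Its stage, MCE, is taken from the label. Whether the listed rhein peaks come from cells at MCE or at Diff cannot be told. The deposited value of each peak, here called the score, ran from 4.32 to 488 in the rhein MCE list. Read as the negative base-2 logarithm of an adjusted p-value, its lowest value stands for 0.0502. The lowest scores of DMSO Pre (4.19) and DMSO Diff (4.27) were smaller still. This reading is an assumption that was not established. Under it, a larger score is a more certain call and not a stronger methylation.

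The highest-scoring rhein-only peaks that lay within 1 coding exon, held GGAC and were not longer than 300 bases show what was listed. The first set comes from genes that had a DMSO peak elsewhere, and the second from genes with no DMSO peak. Sequences are from GRCm38 (mm10), in the sense of the mRNA, with each GGAC in capitals.
Eid1 (chr2:125673295-125673394, plus strand, coding exon): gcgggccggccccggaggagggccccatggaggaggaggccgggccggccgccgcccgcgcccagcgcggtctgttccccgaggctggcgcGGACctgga
1700017B05Rik (chr9:57256529-57256578, minus strand, coding exon): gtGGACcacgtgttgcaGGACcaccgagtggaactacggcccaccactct
Arid1a (chr4:133753374-133753423, minus strand, coding exon): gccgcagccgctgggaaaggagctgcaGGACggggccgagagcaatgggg
Npepl1 (chr2:174110424-174110523, plus strand, coding exon): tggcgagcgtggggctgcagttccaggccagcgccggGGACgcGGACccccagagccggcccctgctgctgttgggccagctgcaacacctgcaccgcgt
Psmc5 (chr11:106262127-106262201, plus strand, coding exon): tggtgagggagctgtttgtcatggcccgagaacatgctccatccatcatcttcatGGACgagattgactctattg
Abhd12 (chr2:150904380-150904504, minus strand, coding exon): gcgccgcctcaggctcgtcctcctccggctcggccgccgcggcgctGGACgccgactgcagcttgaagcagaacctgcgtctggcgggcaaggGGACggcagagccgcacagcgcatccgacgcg
Among these, Eid1 scored 70.2, 1700017B05Rik 29.9 and Arid1a 22.5. In the second set, Npepl1 scored 19.9, Psmc5 13.7 and Abhd12 13.1.

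Short stretches around the motif show the same for the untranslated regions of 3 genes. Each is 24 bases from one of the highest-scoring rhein-only peaks in an untranslated region.
Klf5 (chr14:99298792-99298815, plus strand, 5′ UTR): aaagtggctgcccgaGGACctcgg
Fstl1 (chr16:37834134-37834157, plus strand, 3′ UTR): agaaactaaaGGACaccttgGGAC
Foxc1 (chr13:31807108-31807131, plus strand, 5′ UTR): ggcgcggcccGGACtcGGACtcgg
The peak scored 50.8 in Klf5, 47.1 in Fstl1 and 44.4 in Foxc1.

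List-only peaks were common in every condition, and their share was lowest under rhein. The 986 rhein-only peaks were 32.1% of the rhein list (95% interval 30.5-33.8). The same count taken for the other lists, each against its 3 fellow lists, gave 1090 of 2824 peaks in DMSO Pre (38.6%), 2701 of 5128 in DMSO MCE (52.7%) and 1068 of 2944 in DMSO Diff (36.3%, 34.6-38.0). The rhein share was the lowest of the 4, and its interval did not reach those of the DMSO lists. The lists differ in length, and the DMSO Pre, DMSO Diff and rhein lists were each set against DMSO MCE, the longest. Only the rhein list had in DMSO MCE a partner labelled with its own stage. Without DMSO MCE, 1547 rhein peaks (50.4%) overlapped no peak of DMSO Pre or DMSO Diff.

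**Figure D1:**
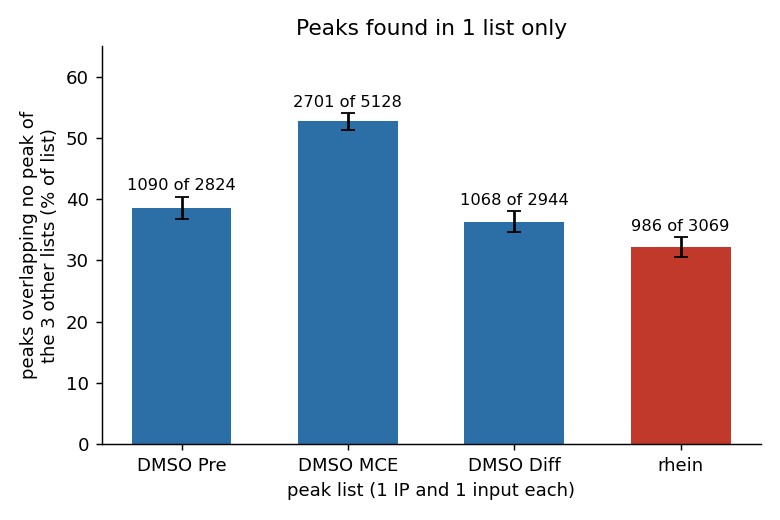
Share of peaks found in 1 list only, in percent of that list, for DMSO Pre, DMSO MCE, DMSO Diff and rhein MCE (bars; whiskers are 95% Wilson intervals over peaks, and the numbers above give peaks found in that list only of all peaks listed). The rhein bar, at 32.1%, is the lowest, and DMSO MCE, at 52.7%, is the highest.

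At the edge of the rule, 59 rhein-only peaks lay less than 25 bases along the transcript from a DMSO peak. Examples are Il1r1 (score 44.5), whose peak ended at the base before a DMSO MCE peak began, and Pi15 (15.8). Just outside, 75 of the 2083 other rhein peaks shared only 25 bases, the step of the peak caller, with a DMSO peak, among them Acadl (10.3) and Gli2 (5.55). Another 30 rhein-only peaks, among them that of Eid1, lay across from a DMSO peak on the opposite strand. When rhein peaks within 100 bases of a DMSO peak were counted as found, 825 remained.

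Most rhein-only peaks, with all listed peaks counted, were in genes that held a DMSO peak at another position. Of the 986, 663 (67.2%, 64.3-70.1) were in 491 genes with a DMSO peak elsewhere, 283 (28.7%, 26.0-31.6) were in 244 genes with no DMSO peak, and 40 could not be placed on an annotated exon. The 735 genes with a rhein-only peak were 39.7% of the 1851 genes with any rhein peak. A peak elsewhere in the gene was also the rule for the DMSO lists, where it held for 61.7% (DMSO Pre), 51.3% (DMSO MCE) and 65.2% (DMSO Diff) of the placed list-only peaks, against 70.1% (67.1-72.9) under rhein. The rhein and DMSO Diff intervals overlapped (62.2-68.0 in DMSO Diff). The majority was lost when peaks had to score above 10 in the rhein and the DMSO lists alike, where 43.6% (38.8-48.4) of 404 placed rhein-only peaks were in genes with a DMSO peak elsewhere.

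The gene was marked in DMSO MCE for 565 of the 663 peaks, in DMSO Pre for 376, in DMSO Diff for 385, and in all of them for 243. DMSO MCE is the longest list, with 5128 peaks against 2824 and 2944, so these counts do not compare the stages. Of the 491 genes, 275 also kept a rhein peak that overlapped a DMSO peak. In the other 216, holding 262 rhein-only peaks, no rhein peak overlapped a DMSO peak of the gene, though some, such as that of Mtrex described below, lay directly next to one. Along the transcript, 638 rhein-only peaks had a DMSO peak to measure from, at a median gap of 275 bases (quartiles 75 and 726). The gap was under 100 bases for 172 of them and 1000 bases or more for 124.

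The rhein-only peaks were concentrated at the low and narrow end of the list, a description that the rule itself favours because a wide peak has more bases with which to meet another. Their median score was 7.51 against 8.35 for the other rhein peaks, and they covered a median of 75 exonic bases against 175. List-only peaks of the DMSO lists were lower and narrower in the same way, with median scores of 6.97 against 8.25 in DMSO Pre, 6.63 against 8.49 in DMSO MCE and 7.80 against 8.58 in DMSO Diff. Their median exonic lengths were 75 against 175, 100 against 175 and 75 against 150 bases. With the rhein list cut into 10 bins by score, 58 of 307 peaks were rhein-only in the highest bin (18.9%) and 132 of 307 in the lowest (43.0%). Of the peaks of 50 exonic bases, the narrowest step, 291 of 532 were rhein-only (54.7%), against 4 of 158 over 300 bases (2.53%). Above a score of 20 stood 59 rhein-only peaks (5.98%, 4.67-7.64) and 12.1% of the other rhein peaks. List-only peaks past this score made up 4.95% in DMSO Pre and 5.15% in DMSO Diff, but 0.296% in DMSO MCE.

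**Figure D2:**
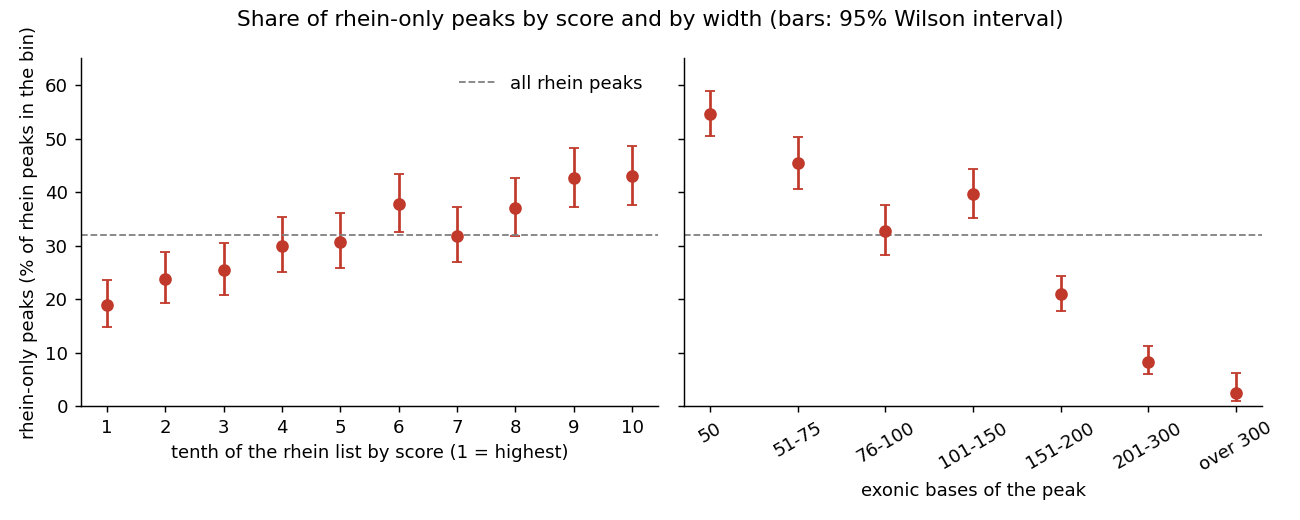
Rhein-only peaks as a percent of the rhein peaks in each of 10 bins of the list by score (left, 1 is the highest) and in each class of exonic length in bases (right); points are shares, whiskers 95% Wilson intervals, and the dashed line is the 32.1% of all rhein peaks. The share rises from 18.9% in the top bin to 43.0% in the lowest, and falls from 54.7% at 50 bases to 2.53% over 300 bases.

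This trend held to the top of the list, where 13 of the 100 highest-scoring rhein peaks were rhein-only (13%). A small group of rhein-only peaks nevertheless scored high, and high list-only scores were not peculiar to rhein. The highest list-only peak scored 735 in DMSO Pre and 675 in DMSO Diff, each rank 1 of its list, but 30.15 in DMSO MCE. The highest-scoring rhein-only peak was in Jun, a subunit of the AP-1 transcription factor known as an immediate-early gene. It covered 225 bases in the middle of the coding sequence (chr4:95050734-95050958, minus strand, midpoint 579 bases before the end of the coding sequence) with a score of 145, rank 7 of the rhein list. It held no GGAC. Jun was also marked in every DMSO list: a peak over the stop codon scored 73.3 in DMSO MCE, against 6.69 in DMSO Pre, 5.62 in DMSO Diff and 6.96 under rhein. In DMSO Pre and DMSO Diff a further coding peak, centred 204 and 242 bases before the end of the coding sequence, scored 44.1 and 69.1. The rhein-only peak thus lay 175 bases from the nearest DMSO peak, in a part of the coding sequence with no listed DMSO peak.

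Other high-scoring rhein-only peaks were also in the coding sequence of genes with DMSO peaks. Of the 12 highest, in 11 genes, 8 were coding, and 5 held GGAC. Cenpb, which encodes a centromere DNA-binding protein, held a pair of them, at 70.7 and 39.2, beside 4 DMSO MCE peaks in the same single-exon gene that scored up to 19.5. Mtrex, an RNA helicase that works with the nuclear exosome, had a rhein-only peak of 50 exonic bases across its first intron at 75.5, abutting a DMSO MCE peak that scored 5.02. Eid1, an inhibitor of EP300-dependent differentiation, scored 70.2 in its coding sequence, while its DMSO peaks, at 8.85 to 18.9, were all in the 3′ UTR. Il1r1, the interleukin-1 receptor, had its rhein-only peak at 44.5 next to a DMSO MCE peak at 31.7. The remaining coding peaks were in Oaf (55.6) and Ahnak (49.1), and Smarcd3, a subunit of the BAF remodelling complex, scored 53.6 on a transcript annotated as noncoding.

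In the untranslated regions, Klf5 and Fstl1 were the highest. Klf5, a zinc-finger transcription factor of early adipogenesis, had a DMSO peak in the 3′ UTR in DMSO MCE (12.8) and DMSO Diff (20.5) and none in DMSO Pre. Under rhein this 3′ UTR peak was listed at 52.3, and a further peak at 50.8 covered the first 125 bases of the transcript and holds the stretch shown above. Fstl1, a secreted follistatin-like protein, had 1 DMSO peak, at the far end of its 3′ UTR in DMSO MCE (10.8). The rhein list held a wider peak that shared 25 bases with it (14.8) and 3 rhein-only peaks upstream in the same 3′ UTR, at 47.1, 21.5 and 11.8. Sox4, an HMG-box transcription factor, had a rhein-only peak of 50 bases far into its 3′ UTR at 38.0, and none of its 11 DMSO peaks lay within 1475 bases of it.

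**Figure D3:**
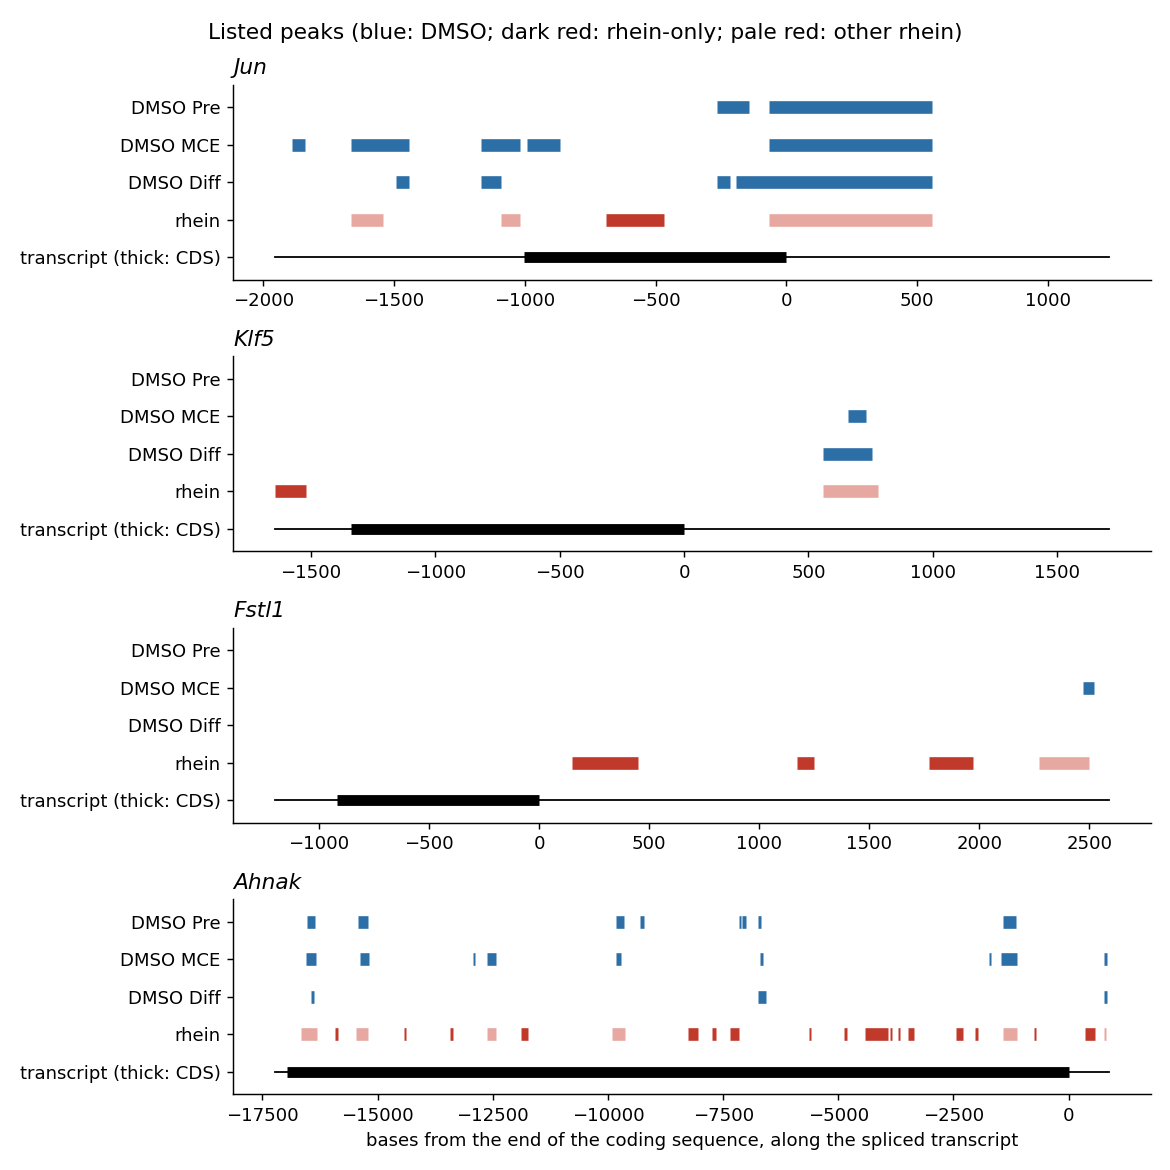
Listed peaks in Jun, Klf5, Fstl1 and Ahnak along the spliced transcript, in bases from the end of the coding sequence (1 row per list; blue, DMSO peaks; dark red, rhein-only peaks; pale red, other rhein peaks; thick black line, coding sequence). The rhein-only peak of Jun sits inside the coding sequence, that of Klf5 at the transcript start and those of Fstl1 along the 3′ UTR. Of the 17 in Ahnak, 16 run along 1 long coding sequence and the other is in the 3′ UTR.

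A few genes held many rhein-only peaks. While 586 genes had 1 such peak and 114 had 2, another 35 genes had 3 or more and held 132 of the peaks. Ahnak, which encodes a giant scaffold protein on a transcript of 18100 bases, held 17 of its 23 rhein peaks as rhein-only, 16 of them in the coding sequence. Their scores ran from 7.01 to 49.1 with a median of 14.2, and 9 held GGAC. DMSO Pre listed 8 Ahnak peaks, DMSO MCE 9 and DMSO Diff 3. Myh9, the heavy chain of nonmuscle myosin IIA, had 6 rhein peaks, all rhein-only, at 6.54 to 11.6, and each DMSO list marked it at 1 or 2 other positions. Plec, which encodes the cytoskeletal linker plectin, held 5 of 21 as rhein-only and Col5a3, a fibrillar collagen chain, 5 of 6, none above 8.79.

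Genes with no DMSO peak gave a different set of names at the top. Of the 12 highest peaks of this class, 6 were on noncoding transcripts, 3 in a 5′ UTR, 2 in a 3′ UTR and 1 in a coding sequence, and 6 held GGAC. Foxc1, a forkhead transcription factor of mesenchymal cells, held a pair in its 5′ UTR at 44.4 and 28.7. Ndufa13, a subunit of mitochondrial complex I, had a peak of 75 bases at the stop codon (38.5). Vat1, a membrane protein of the quinone oxidoreductase family, had 1 in the coding sequence (36.3), Tmem123 1 in the 5′ UTR (30.6), and Srp14, a subunit of the signal recognition particle, 1 in the 3′ UTR (25). The genes with 3 rhein-only peaks and no DMSO peak were Psma1, a subunit of the 20S proteasome (11.6, 8.12 and 7.80), Smarce1, a BAF subunit (8.85, 5.74 and 5.71) and Bag6, a chaperone of newly made membrane proteins (8.02, 6.15 and 5.48).

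Among the 283 peaks in genes with no DMSO peak, 50 were not on protein-coding genes. They included 16 on antisense genes, 12 on snRNA genes and 8 on processed pseudogenes. The highest was on AC113961.1, a long intergenic noncoding RNA, at 67.9, with 4 GGAC. The microRNA entry Gm24157 scored 46.4, the histone entry Hist1h2al, on a transcript annotated as noncoding, 32.6, the U6 snRNA gene Rnu6 36.6 and the 5S rRNA copy n-R5s103 24.6. The peaks of Gm24157 and Hist1h2al lay across from a DMSO peak on the opposite strand. The U6 and 5S genes belong to families of near-identical copies, and a read kept in 1 copy may come from another, so their place is uncertain. Across all placed rhein-only peaks, 93.6% were on protein-coding genes (91.8-94.9), against 89.2% of the other rhein peaks (87.7-90.5). On snRNA genes were 1.27% of the placed rhein-only peaks (0.727-2.20), against 6.0% of the other rhein peaks. The highest of the 40 unplaced peaks scored 62.7 and is named by position only (chr4:3835436-3835535).

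Along coding transcripts, the 823 rhein-only peaks lay in the coding sequence more often than the other 1745 rhein peaks and near the stop codon less often. The midpoint was in the coding sequence in 58.4% (55.0-61.8) against 50.1%, in the 3′ UTR in 35.8% against 41.5% and in the 5′ UTR in 5.71% against 8.42%. Peaks placed at every possible position on the same transcripts would give 53.2% coding for rhein-only and 51.4% for the other rhein peaks. Within 200 bases of the stop codon lay 19.4% of the rhein-only peaks (16.9-22.3) and 24.6% of the others, against 13.1% and 12.2% by such even placement. The coding difference of 8.36 percentage points (Newcombe interval 4.23-12.4) was 4.88 when an overlap had to cover 50% of the rhein span and 4.40 against DMSO MCE alone. With scores above 10 on both sides it was 1.95, with an interval from -5.23 to 9.11 that includes 0. The stop-codon difference of -5.14 points was -5.01 for rhein scores above 10, with an interval from -10.8 to 1.86. List-only peaks of the DMSO lists also had a higher coding share than the rest of their list, at 61.6% against 51.8% in DMSO Pre, 56.1% against 52.6% in DMSO MCE and 58.6% against 53.4% in DMSO Diff, with overlapping intervals in DMSO MCE and DMSO Diff. Near the stop codon they made up 16.5% against 25.5%, 23.8% against 26.3% and 18.6% against 26.5%, with overlapping intervals in DMSO MCE. Exons of 1000 bases or more, the usual seat of m6A, held 49.1% of the rhein-only peaks and 66% of the others. The median length of the exon holding the midpoint was 953 against 1813 bases. List-only peaks of the DMSO lists also lay in shorter exons, at 1154 against 1911 bases in DMSO Pre, 1224.5 against 1814 in DMSO MCE and 807.5 against 1809 in DMSO Diff.

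The intervals of the 2 classes of rhein-only peaks were apart here. In genes with no DMSO peak, 70 of 220 lay within 200 bases of the stop codon (31.8%, 26.0-38.2), while in genes with a DMSO peak elsewhere 90 of 603 did (14.9%, 12.3-18). Even placement would give 18.1% and 11.3%, since the median transcript of the first class was shorter (2864 against 4552 bases). In the second class the rule also keeps out every position that a DMSO peak of the gene covers. The DMSO lists showed the same order. List-only peaks near the stop codon made up 23.5% against 12.9% for DMSO Pre, 31.3% against 17% for DMSO MCE and 28.2% against 14.6% for DMSO Diff, each time with the higher share in genes that no other list marked.

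**Figure D4:**
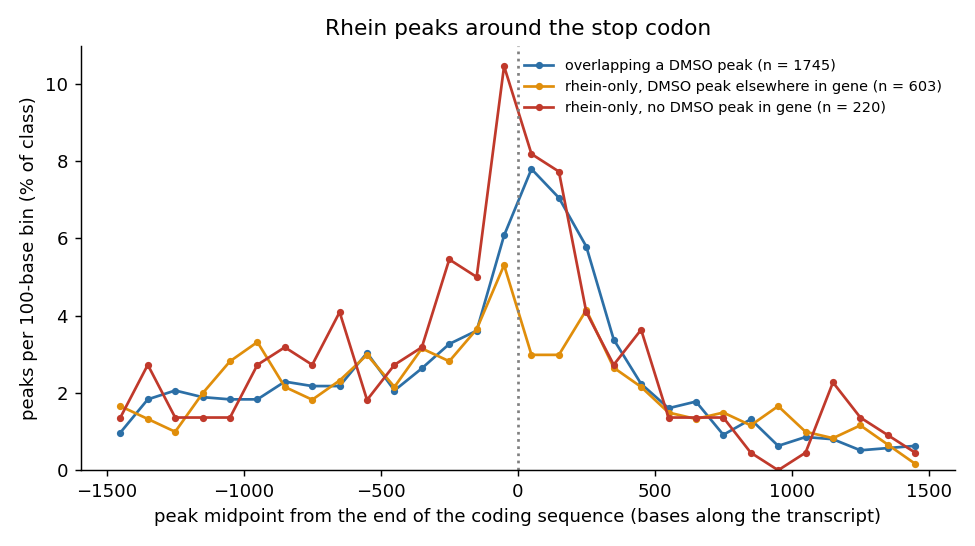
Midpoints of rhein peaks around the end of the coding sequence, in bins of 100 bases along the transcript, as a percent of each class (blue, peaks that overlap a DMSO peak, n = 1745; orange, rhein-only peaks in genes with a DMSO peak elsewhere, n = 603; red, rhein-only peaks in genes with no DMSO peak, n = 220). The red line reaches 10.5% in the last 100 coding bases, and the orange line, at 2.99% in each of the first bins past the stop codon, stays under the blue one there (7.79% and 7.05%).

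The core motif GGAC, searched on the mRNA strand only, was in 363 of 946 placed rhein-only peaks (38.4%, 35.3-41.5). It was in 58.7% of the other rhein peaks. Windows of the same lengths taken at every position of the same transcripts held it in 33.3% for the rhein-only peaks and 45.1% for the others. GGACT, which contains GGAC, was in 11.5% and 27.2%. In a fixed window of 100 bases around each midpoint, which removes the difference in width from the count, GGAC was in 38.8% (35.8-42.0) of rhein-only peaks and 52.2% of the others, against 34.3% and 32.9% of all such windows.

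The gap lay in the wider peaks. Among peaks of 50 to 100 exonic bases, 30.9% (27.3-34.7) of rhein-only and 29.2% (26.0-32.6) of the other rhein peaks held GGAC. Among those above 100 and up to 200 bases, it was in 150 of 300 (interval 44.4-55.6%) and in 68.3% (64.9-71.6), and above 200 bases 27 of 42 (64.3%) and 83.7%. Rhein-only peaks with high scores held the motif no more often. In the 100-base window, GGAC was in 35.3% (29.1-42.0) of the rhein-only peaks above a score of 10 and in 39.8% (36.3-43.4) of those at or below it. The other rhein peaks had the same order, with 48.8% (45.1-52.6) and 54.0% (51.3-56.6). The classes did not differ beyond their intervals, with 39.1% (35.4-42.8) of whole peaks in genes with a DMSO peak elsewhere and 36.7% (31.3-42.5) in genes with none. List-only peaks of DMSO Diff held GGAC in 34.1% (31.2-37.0), those of DMSO Pre in 42.2% (39.3-45.2) and those of DMSO MCE in 45.2% (43.3-47.1). Per kilobase of peak, GGAC was rarer in list-only peaks than in the rest of every list. The counts were 5.93 against 7.504 in DMSO Pre, 6.65 against 7.41 in DMSO MCE and 4.46 against 6.87 in DMSO Diff. Under rhein they were 4.95 against 7.03. Above 100 and up to 200 bases, the shares were 66.5% against 70.2% in DMSO Pre and 66.6% against 67.8% in DMSO MCE. Their intervals overlapped. DMSO Diff, the list closest to rhein per kilobase, is not given for this width. The lower rhein-only share there therefore cannot be called particular to rhein.

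**Figure D5:**
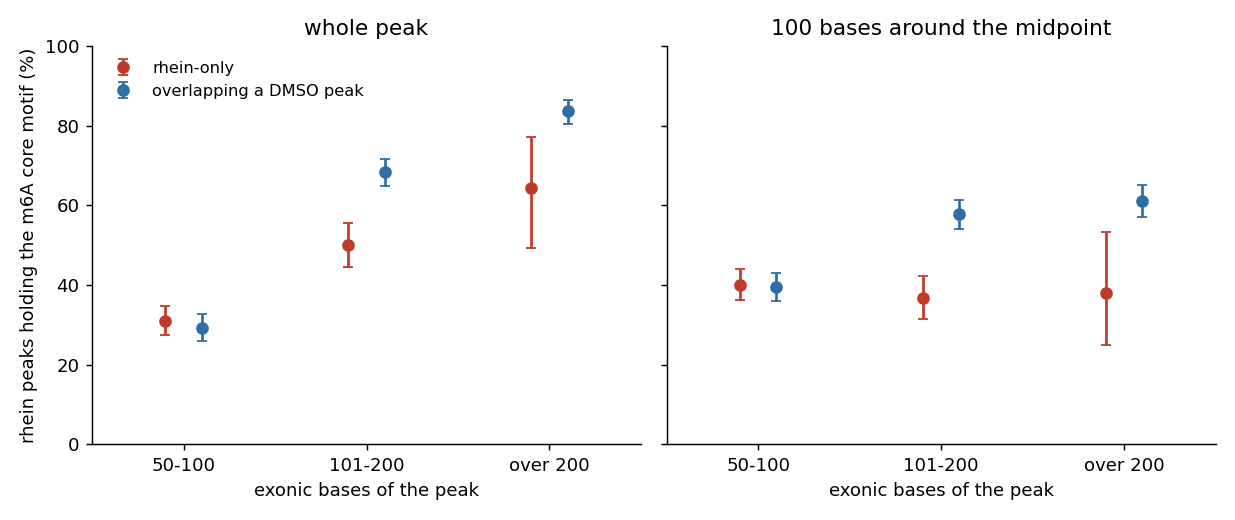
Percent of rhein peaks that hold the m6A core motif, in the whole peak (left) and in the 100 bases around its midpoint (right), by exonic length of the peak; red, rhein-only peaks; blue, rhein peaks that overlap a DMSO peak; whiskers are 95% Wilson intervals. In narrow peaks the points coincide (30.9% and 29.2% on the left), and in peaks above 100 and up to 200 bases the red points are lower (150 of 300 peaks against 68.3%, left).

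By function, peaks were counted against the 32.1% of all rhein peaks that were rhein-only. Genes of RNA-binding and splicing proteins stood above it, with 51 of 108 peaks rhein-only (47.2%, 38.1-56.6) in 33 of 53 genes with a rhein peak. The highest were in Serbp1, an mRNA-binding protein (30.9), and in Hnrnpf (14.1) and Hnrnph1 (13.3), related splicing regulators. Of the proteins that install, remove or read m6A, 10 of 21 peaks were rhein-only (47.6%, 28.3-67.6), namely 4 in Hnrnpa2b1, a reader (up to 20.9), 2 in Igf2bp3 (up to 14.0) and 1 each in Ythdf1, Ythdf2, Rbm15 and Zc3h13. The interval of this list includes 32.1%.

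Cytoskeleton and adhesion genes had 51 of 108 peaks rhein-only (47.2%, 38.1-56.6), of which Ahnak gave 17. Without Ahnak, a count added after its peaks were seen, it was 34 of 85 (40.0%, 30.2-50.6), an interval that includes 32.1%. Flnc scored up to 22.2, Pfn1 16.7 and Cald1, with no DMSO peak, 13.6. Cytoplasmic ribosomal protein genes had 13 of 27 (48.1%, 30.7-66), led by Rpl4 (14.8), Rpl10a (14.2), Rpsa (11.2) and Rps27a (10.3). These have many processed pseudogenes, which makes single placements uncertain. Lysosome and endocytosis genes had 13 of 31 (41.9%, 26.4-59.2), with up to 9.80 in Ctsl. Lipid metabolism and adipocyte genes had 8 of 21 (38.1%, 20.8-59.1), chromatin modifiers 22 of 64 (34.4%, 23.9-46.6) and histone genes 6 of 17 (35.3%, 17.3-58.7). The intervals of these lists, and that of the ribosomal list, included 32.1%. Within the histone list Hist2h2bb was highest (11.2). The list did not hold the histone entry Hist1h2al, whose rhein-only peak scored 32.6. In the lipid list, Lipe, the hormone-sensitive lipase (8.24), and Scd1, a fatty acid desaturase with a pair at 7.52 and 5.94, had no DMSO peak at all, and Abca1 scored 8.85. Among chromatin modifiers, Arid1a (22.5), Smarcc1 (20.4), Brd2 (10.9) and Chd4 (10.3) were the highest.

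Other groups stood below the share of all rhein peaks. Extracellular matrix genes had 16 of 92 (17.4%, 11-26.4), the only list whose interval lay wholly below 32.1% besides that of JAK-STAT genes, with 3 of 26 (11.5%, 4.0-29). The matrix peaks with the highest scores were in Fbln2 (19.5), Timp2 (14.3), Emilin1 (11) and Lamc1 (9.23), and those of the JAK-STAT list in Il6st (9.67), Ifnar2 (8.80) and Jak1 (7.66). Immediate-early and AP-1 genes had 7 of 37, in Jun, Zfp36l2 (12.9), Fosl2 and Dusp1 (6.44). Early adipogenic transcription factors had 3 of 18, in Klf5, in Cebpb, whose 3′ UTR peak of 50 bases (17.0) lay 25 bases from a DMSO peak, and in Nfia (4.77). The counts were 11 of 43 for cell cycle and DNA replication genes, 5 of 20 for TGF-beta and BMP genes, 10 of 35 for Wnt, Notch, Hippo and hedgehog genes and 7 of 28 for insulin, PI3K and mTOR genes. They were 5 of 24 for receptor tyrosine kinase and MAP kinase genes, 4 of 22 for endoplasmic reticulum folding genes, 7 of 24 for proteoglycan-synthesis genes, 8 of 34 for solute carriers and 7 of 29 for numbered zinc finger genes. All of these intervals included 32.1%.

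Of the genes discussed in the study, 3 of 16 rhein peaks were rhein-only, and all were in genes that DMSO cells also marked. H1f0, the replacement linker histone, had 1 rhein-only peak in the 3′ UTR at 9.62, 275 bases from its nearest DMSO peak. Its 5′ UTR peak was present in DMSO MCE at 38.4, in DMSO Diff at 10.8 and under rhein at 195. Chpf, a chondroitin polymerizing enzyme, had 1 in the coding sequence at 8.25, and Cebpb the peak given above. Rpl36 and Reep3 had no placed peak in any of the 4 lists.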

How the data were processed

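The authors trimmed reads with Trim Galore 0.6.5, aligned them to mm10 with HISAT2 2.1.0, removed PCR duplicates with Picard 2.23.5 and reads of mapping quality under the study's limit with SAMtools 1.9. Default exomePeak2 calls gave the peaks, and ChIPseeker 1.26 the genes and parts. The deposited lists give 1 score per peak under a header naming a log2 fold change, which its range contradicts. No library's read total was used or known, and which IP and input entered each list was not established.

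Here peaks were placed on GENCODE M21 (GRCm38), both ends in exons of 1 transcript of the same strand, coding transcripts first. The listed gene symbol differed from this gene for 26.2% of the placed rhein-only peaks. On simulated data, 99.9% of 2000 peaks came back with the right number of exonic bases, and 100% of 600 planted overlaps were recovered. Whether each peak was given its right gene or transcript was not scored. Overlap meant at least 1 base. Shares carry 95% Wilson intervals, and differences between shares Newcombe intervals. Python 3.11.15, pandas 2.3.3, NumPy 2.4.6, pysam 0.24.0 and Matplotlib 3.10.9 were used.

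Members and gene lists were chosen with earlier results of these data known. Genes named were the 12 highest-scoring peaks of each class, genes with 3 or more, up to 4 per list and those the study discusses. Acadl, Gli2 and the other examples at the edge of the rule were chosen after their values were seen. Zc3h13 and Ythdf2 were named beyond the 4 highest of their list. Zfp50 is not an entry of the annotation and was not analysed here. Alternatives changed the overlap rule, strand, score limit, DMSO lists compared, gene and part assignment and motif window.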

Additional observations from a re-analysis of the deposited data

How the results depend on the processing

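Without replicates, no library could be left out and the values rest on 1 IP and 1 input per list. No paired analysis was possible because each condition has 1 IP and 1 input. Among 8 alternatives, the count of 986 rhein-only peaks moved by more than 1.5 times with 3: it was 212 (22.7% of rhein peaks) for rhein scores above 10 against all DMSO peaks, 410 (43.9%) for scores above 10 on both sides, and 1547 against DMSO Pre and DMSO Diff only. Under these score limits the median score became 14.1 and 14.3, since low scores were removed. The share of placed rhein-only peaks in genes with a DMSO peak elsewhere (70.1%) was 75.2% when an overlap had to cover 50% of the rhein span, 64.1% when peaks within 100 bases counted as found, 43.6% with both score limits, no longer a majority, 59.2% against DMSO MCE alone and 52.3% against DMSO Pre and DMSO Diff only. The coding share (58.4%) was 51.5% with both score limits. With the part as listed by the authors, 49.3% of all 986 peaks were in the listed exon class. That is not the same measure, since it also counts unplaced peaks and peaks on noncoding transcripts. GGAC (38.4%) was in 42.3% with the 50% overlap, in 46.0% with both score limits and in 44.6% against DMSO Pre and DMSO Diff only, and GGACT in 11.5%. The cause of these shifts was not tested. Relative to the other rhein peaks, the coding share was higher by 1.95 to 11.5 percentage points over 9 alternatives. For 1 of these the share is that of the listed exon class (6.71 points). The interval of the difference included 0 with both score limits. The share near the stop codon was lower over 8 alternatives (-7.34 to -3.68), with an interval that included 0 for rhein scores above 10 against all DMSO peaks (-10.8 to 1.86). The GGAC share was lower over 10 (-24.7 to -13.4), with no interval that included 0. The rhein Diff list, which holds the same members, was run as planned and is not counted here. Of the 24 named peaks, Eid1, Gm24157 and Hist1h2al were lost when either strand counted, and Mtrex, Il1r1 and 1 peak of Cenpb when peaks within 100 bases counted as found.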
